A study of Rubus occidentalis with 14 samples.

Results

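The genes described here stood at one level in black raspberry fruit of stages 1 and 2, stepped up at stage 3 and then held within a narrow band through stages 4 and 5. They number 150 of the 33253 gene identifiers in the deposited table. The members were chosen by the measured values themselves. With each stage mean of normalised counts written as log2(mean + 10), a gene needed a stage 3 mean of at least 100, a difference of at most 0.7 between stages 1 and 2, and a spread of at most 0.7 over stages 3, 4 and 5. Its score was the lowest of the 3 late stages minus the higher of the 2 early stages, and the 150 highest scores were taken. Of the 11000 genes with a stage 3 mean of at least 100, 6057 were steady on both sides and 661 also scored at least 0.7. The other 511 of these, called the lower-scoring genes below, serve as the nearest comparison.

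The study measured poly(A) RNA of whole fruit of Rubus occidentalis by stranded RNA sequencing, to follow gene activity through 5 numbered fruit stages. All libraries came from 1 plant line, the advanced breeding selection NC 349, grown untreated as far as the labels say at a research station. There were 3 libraries of every stage except stage 4, which had 2. The labels number all 14 as biological replicates but do not say which plants or fruits went into each, so the tests measure how far libraries of a stage differ, technical scatter included. In stages 1, 2, 3 and 5 the titles of replicates 2 and 3 carried the same code, and replicate 1 had another. What these codes stand for is not given in the labels. Replicate numbers here follow the titles, and those of stage 4 differ from the numbers in the library names. The tests treat all libraries as independent, which the labels do not settle. Same-numbered libraries of stages 1 and 2 deviated together, with correlations of 0.235 to 0.390, and what this reflects was not tested. Fruit age in days is not given in the labels.

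A black raspberry is an aggregate of small drupelets, each with its own seed, skin and flesh. Ripening in raspberries brings softening, a rise in sugars and the build-up of anthocyanin pigments, and depends on large shifts in gene expression. The labels number the stages, and the library names tag them with the letters Gr, Re, So, Tu and Bl. These letters are not explained, so no stage is tied to colour or firmness here. The table holds identifiers without gene names, so no role is assigned to any member. In whole fruit, a higher share of the cells that express a gene and more RNA per cell cannot be told apart.

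Recovered library totals ran from 7576338 to 39938265 reads, and 1 read was worth 0.319 to 2.76 normalised counts. This depth was ample for nearly all members: 4 of the 150 had fewer than 10 reads in at least 1 library, and the lowest count was 3 reads. Stage 2 replicate 2 stood apart from replicates 1 and 3 of its stage for these genes, as set out below, and results that rest on it are given with and without it. Sums of the deposited values grew over the stages, with stage means between 11371990 in stage 1 and 27552453 in stage 5, so a scaling to equal total reads is given beside the step sizes.

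The step was upward from a measurable level, not from silence. Over the members, the median of the stage means was 466 and 518 normalised counts for stages 1 and 2, and 1886, 2370 and 2075 for stages 3, 4 and 5. None of the 150 had a mean over stages 1 and 2 below 10 normalised counts, and 28 had one below 100. The mean of stages 3 to 5 was 2.89 to 19.8 times that of stages 1 and 2, with a median of 4.24. In 19 members the ratio was at least 8-fold, in 69 it lay between 4-fold and 8-fold, and in 62 it was under 4-fold.

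Members covered a wide range of abundance once they had stepped up. Their means over stages 3 to 5 ran from 93.3 to 78318 normalised counts, with 15 members at 10000 or more, 96 between 1000 and 10000, and 39 below 1000. The 3 most abundant members made up 24.4% of the summed late level of all 150. Together the members took 1.17% ± 0.07 and 1.19% ± 0.32 of the reads in stages 1 and 2, and 2.95% ± 0.15, 3.30% ± 0.09 and 2.57% ± 0.05 in stages 3, 4 and 5 (SD, n = 3, and n = 2 for stage 4). The wide SD in stage 2 came with a share of 1.55% in replicate 2, against 0.973% and 1.04% in replicates 1 and 3.

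**Figure D1:**
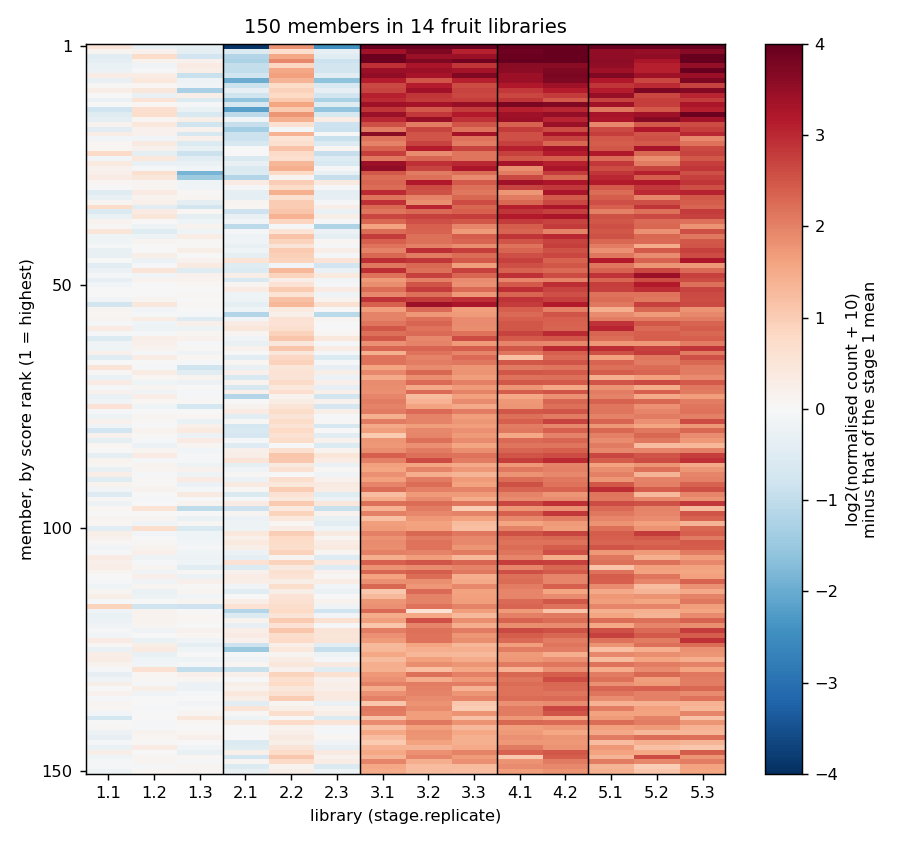
The 150 members (rows, ordered by score, highest at the top) in the 14 libraries (columns, stage and replicate), coloured by log2(normalised count + 10) minus the same value of the stage 1 mean. Libraries of stages 3 to 5 are red throughout, those of stage 1 are pale, and in stage 2 replicate 2 is mostly warm while replicates 1 and 3 are mostly pale or blue, most strongly among the highest scores.

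Ro04_G23123 had the highest score, 3.93. In stage 1 it stood at 1612, 901 and 845 normalised counts in replicates 1, 2 and 3. In stage 2 it stood at 66.5, 3917 and 202. In stage 3 it reached 19835, 24826 and 19558, in stage 4 27107 and 33488, and in stage 5 26702, 24446 and 18021. The 8 late libraries lay far above the 6 early ones, and the stage 2 libraries lay on both sides of stage 1. Its fold of late over early means was 19.8 with all libraries and 39.7 without stage 2 replicate 2, and it was 10.6 with equal total reads.

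Ro01_G00976, next by score, kept closer together within each stage. It had 458, 481 and 327 normalised counts in stage 1 and 288, 672 and 337 in stage 2. It then had 4400, 5682 and 3622 in stage 3, 6349 and 8139 in stage 4, and 5025, 4807 and 5435 in stage 5. Both stage 4 libraries were above every other library of this gene. The change of stage 3 over stage 2 was 3.48 ± 0.27 on the log2(normalised count + 1) scale (SE, limma), and that of stage 5 over stage 1 was 3.61 ± 0.27.

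Ro04_G11405 ranked next and stood at a lower level in every stage mean. It stood at 55.5, 138 and 41.7 normalised counts in stage 1 and at 29.6, 251 and 52.8 in stage 2. Its late values were 1341, 956 and 958 in stage 3, 1340 and 1980 in stage 4, and 1019, 1017 and 1538 in stage 5. Replicate 2 was the highest library in both early stages, and no early library reached the late ones. The fold of late over early means was 13.9 with all libraries and 21.9 without stage 2 replicate 2.

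Ro06_G04847 was the most abundant member over the late stages. It had 15148, 18056 and 15893 normalised counts in stage 1 and 19066, 26703 and 21034 in stage 2. It had 59509, 74279 and 55524 in stage 3, 77733 and 86802 in stage 4, and 94077, 87764 and 86902 in stage 5. Its stage means thus climbed at every step, and its late over early fold was 4.05. Under quantile normalization its change of stage 3 over stage 2 was 0.26 on the log2 scale and no longer passed the limma test (adjusted p 0.332), against 1.51 ± 0.21 (SE) as deposited.

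Ro02_G00794 was the next most abundant and combined a high level with a large step. It had 8249, 8514 and 7171 normalised counts in stage 1 and 4358, 13185 and 5217 in stage 2. It had 50062, 70373 and 48776 in stage 3, 73673 and 83818 in stage 4, and 57455, 63791 and 51529 in stage 5. Stage 2 replicates 1 and 3 were below every stage 1 library and replicate 2 was above them all. The late over early fold was 8.26, and 10.1 without stage 2 replicate 2.

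Ro05_G01704, the other member of this abundance class named by rank, spread most in its last stage. Its values were 8231, 5543 and 6027 normalised counts in stage 1, 7414, 11170 and 9479 in stage 2, 21415, 29631 and 23850 in stage 3, 32070 and 27059 in stage 4, and 29822, 27573 and 49889 in stage 5. A single stage 5 library was far above the others, and the late and early libraries did not overlap. Its change of stage 3 over stage 2 was 1.42 ± 0.25 (SE) on the log2 scale as deposited, and 0.49 under quantile normalization, where it missed the limma threshold (adjusted p 0.13).

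The flattest late course was that of Ro05_G11441, whose stage means over stages 3, 4 and 5 differed by 0.040 on the log2(mean + 10) scale. Its stage means ± SD were 969 ± 335, 942 ± 166 and 962 ± 52.5 normalised counts in stages 3, 4 and 5, and 159 ± 34.6 and 217 ± 99.0 in stages 1 and 2. The stage 3 libraries alone, at 1274, 610 and 1023, spanned more than the distance between the late means. Ro07_G19416 came next, with a late spread of 0.084 on the same scale and stage means of 711 ± 166, 729 ± 94.0 and 754 ± 128. Here stage 2, at 92.3, 241 and 127 normalised counts, was on average below stage 1, at 180, 263 and 213. For both genes the small distance between late means was well inside the spread of replicates.

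The lowest score taken was 1.34, in Ro02_G13096. It had stage means ± SD of 1683 ± 189, 1628 ± 362, 4266 ± 393, 5668 ± 351 and 4440 ± 720 normalised counts in stages 1 to 5, with a late over early fold of 2.89. Ro07_G34580, the next gene and not taken, also scored 1.34. Its values were 45.3, 72.7 and 67.6 normalised counts in stage 1, 82.0, 102 and 103 in stage 2, 198, 346 and 225 in stage 3, 307 and 269 in stage 4, and 387, 177 and 248 in stage 5. The boundary fell within a continuous run of scores: those of the members ran from 1.34 to 3.93 with a median of 1.64, and those of the lower-scoring genes from 0.70 to 1.34 with a median of 0.90.

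**Figure D2:**
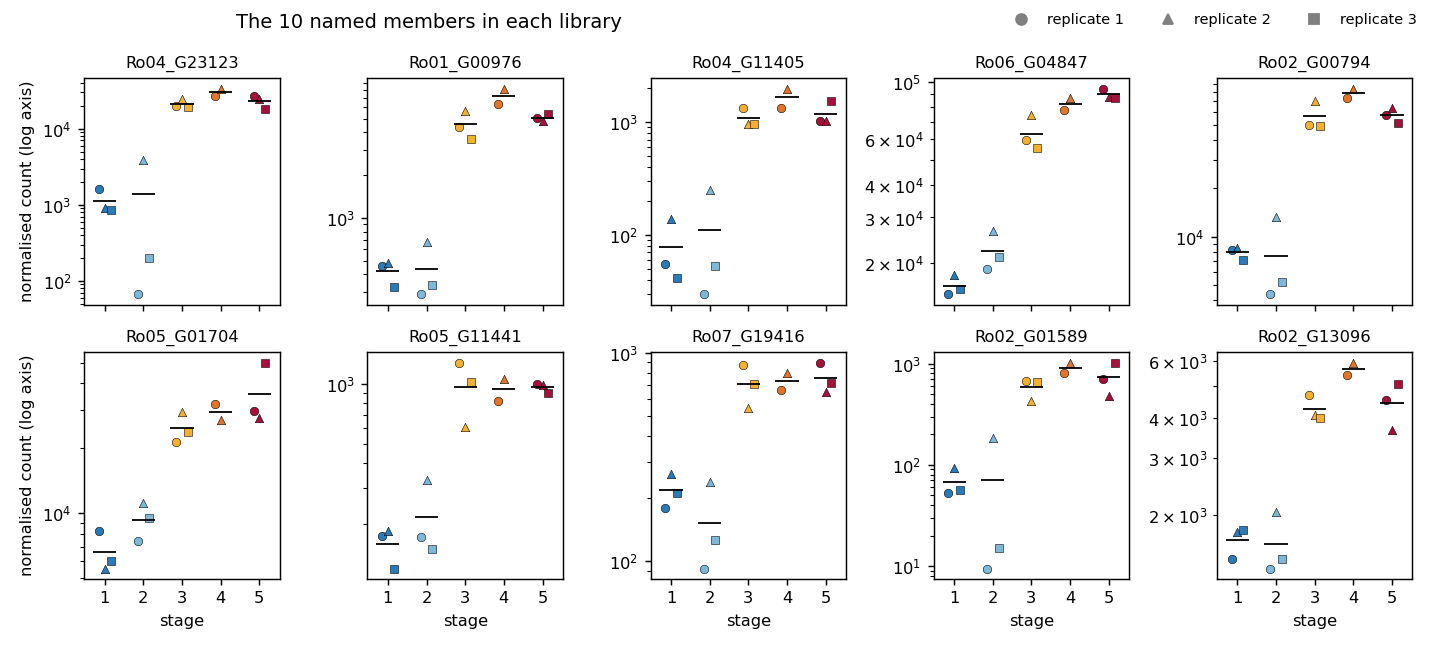
Normalised counts (log axis, its range set per panel) of 10 named members in each library against stage, with marker shape giving the replicate and a bar at each stage mean. Late libraries lie above early ones in every panel, and the triangle of stage 2 replicate 2 is the highest stage 2 marker in each.

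Every stage 3 to 5 library lay above every stage 1 to 2 library in 149 of the 150 members, a pattern shared by 17.7% of the 19234 genes tested. It was also seen in 97.1% of the lower-scoring genes and in 29.2% of genes with a stage 3 mean of at least 100. The exception among the members was Ro01_G02923, named after its values were seen. It had 6.01, 51.8 and 10.6 normalised counts in stage 2 and 161, 43.5 and 105 in stage 3, so stage 2 replicate 2 overlapped stage 3 replicate 2. By limma, stage 3 was above stage 2 in 150 of 150 members, with 23.4% of all genes tested called higher. Stage 5 was above stage 1 in 150 of 150, with 33.4% of all genes called higher. Both limma counts follow from how the members were chosen and are given as a description, and the count of 149 largely follows from it too. The median log2 change over the members was 1.84 for stage 3 over stage 2 and 2.31 for stage 5 over stage 1, where the medians of all genes were -0.12 and -0.30.

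A description outside the choice comes from libraries that took no part in it. The rule was applied to 13 libraries at a time and the 150 genes it then took were looked up in the library left out. A gene counted as on the chosen side when that library was at least 0.7, on the log2(value + 10) scale, below the lowest late mean or above the highest early mean, whichever its stage called for. Over the 14 libraries left out in turn, 98.0% to 100% of the genes were on the chosen side. Among all genes with a stage 3 mean of at least 100, 14.9% to 31.7% were. In stage 2 replicate 2 itself, 148 of 150 genes chosen without it lay on the early side. With a margin of 1 there were 136 (90.7%), against 8.17% of genes with a stage 3 mean of at least 100. Of these 150 genes, 84 were members. Their scores without this library were at least 1.63, well over 0.7, and the compared genes were not chosen for a step. A high share was therefore likely from the choice.

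**Figure D3:**
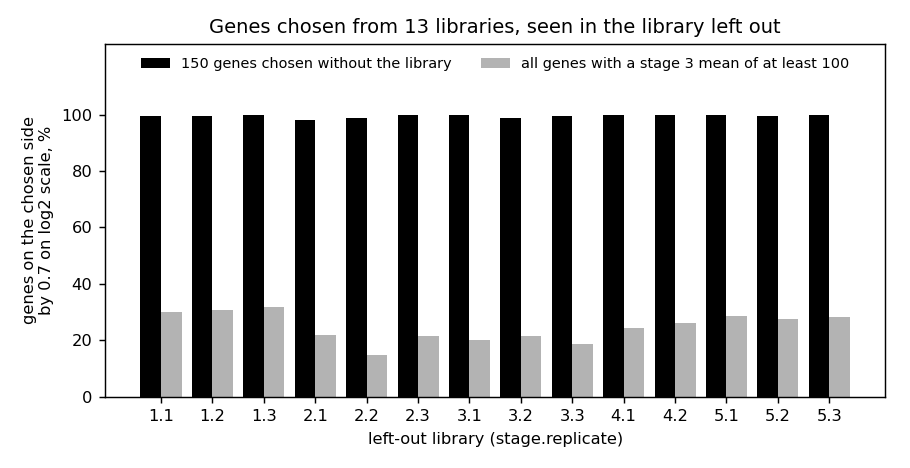
Percent of genes (vertical axis) lying at least 0.7 on the log2 scale on the chosen side in a library (horizontal axis, stage and replicate) that was left out of the choice. Black bars are the 150 genes chosen without that library, at 98.0% or more throughout, and grey bars are all genes with a stage 3 mean of at least 100, at 31.7% or less.

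Stages 1 and 2 were level as stage means, but the stage 2 libraries were not alike. Replicate 2 was the highest stage 2 library in 147 of the 150 members (98.0%), against 36.1% of all genes tested. It was above every stage 1 library in 133 members (88.7%), against 35.6% of all genes. Most of the lower-scoring genes shared these orders, 79.8% the first and 76.9% the second. The size of the excess differed more. On the log2(value + 10) scale replicate 2 exceeded the mean of replicates 1 and 3 by a median of 0.72 over the members. The excess was 0.26 over the lower-scoring genes and 0.03 over genes with a stage 3 mean of at least 100. Replicate 2 was at least 2-fold above both other libraries in 44 of 150 members (29.3%), in 6 of 511 lower-scoring genes (1.17%) and in 4.48% of genes with a stage 3 mean of at least 100. The rule used only the mean of the 3 libraries, so their spread is a feature it did not fix directly, although a high replicate 2 raises that mean and so keeps a gene within 0.7 of stage 1.

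The 2 members with the largest excess in replicate 2 show the pattern at its extreme. Ro04_G23123, given above, was 4.76 higher on the log2 scale in replicate 2 than in the mean of the other stage 2 libraries. Ro02_G01589 was 3.13 higher, with 9.44, 185 and 15.2 normalised counts in stage 2 replicates 1, 2 and 3, against 52.3, 92.0 and 56.6 in stage 1. Its late values were 676, 430 and 657 in stage 3, 811 and 1019 in stage 4, and 703, 484 and 1021 in stage 5. Without replicate 2, stage 2 of this gene was far below stage 1 and the late over early fold was 18.8, against 10.9 with it.

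Each library was also placed on the gene's own scale, where 0% is the stage 1 level and 100% the mean of the 3 late stage levels. The median member stood at -7.67%, 31.0% and -3.54% in stage 2 replicates 1, 2 and 3, and at -1.74%, 2.71% and -1.79% in the stage 1 replicates. Replicate 2 thus sat part of the way up while the other libraries of its stage sat at or slightly under stage 1. Among members its position ran from -5.23% to 57.2%, was 50% or more in 6, and was below every late library in 149. The lower-scoring genes had 31.8% in replicate 2 but 11.9% and 13.9% in replicates 1 and 3. Replicate 2 was shallow, with 8601064 reads against 30430672 and 39938265 in replicates 1 and 3. Stage 1 replicate 2 was also shallow, with 7576338 reads, and stood at 2.71%, but stage 1 itself sets the 0% level of this scale. Stage 2 replicates 2 and 3 shared a title code. Whether depth, or what the code stands for, bears on the position of stage 2 replicate 2 was not tested.

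**Figure D4:**
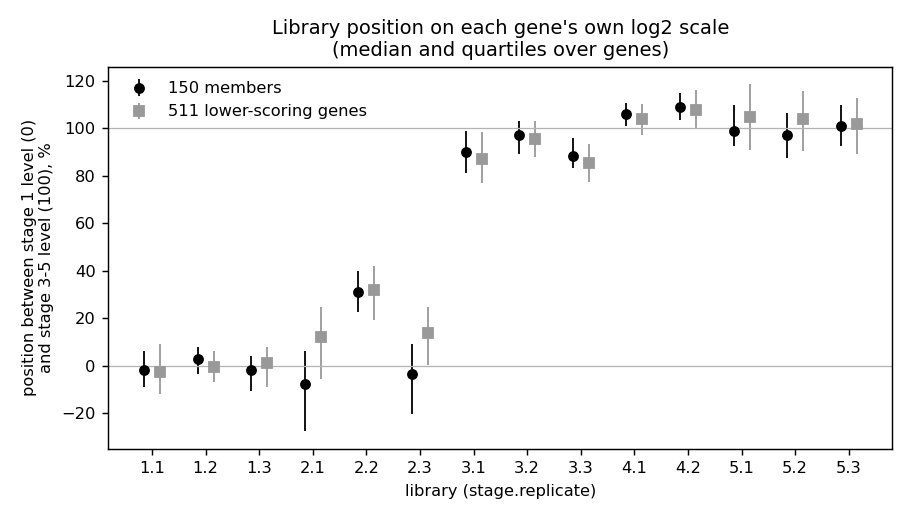
Position of each library (horizontal axis, stage and replicate) between the stage 1 level (0%) and the mean late level (100%) on each gene's log2 scale, as the median with quartiles over the 150 members (black circles) and the 511 lower-scoring genes (grey squares). Stage 2 replicate 2 sits at 31.0% for members, with replicates 1 and 3 at -7.67% and -3.54%, and both stage 4 libraries sit above 100%.

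With replicate 2 left out, the members' stage 2 moved down relative to stage 1. On the log2(mean + 10) scale the mean of replicates 1 and 3 was under stage 1 in 90 members (60.0%), against 41 (27.3%) when all 3 libraries were used. Over all genes tested these shares were 54.3% and 53.4%, and over the lower-scoring genes 27.2% and 16.6%. Without replicate 2 the members were thus near all genes, and with it they were under all genes. In both cases they were above the lower-scoring genes. The mean of replicates 1 and 3 was lower than stage 1 by over 0.7 in 21 of 150 members. This share was under the 23.6% of all genes. It was above the 1.37% of the lower-scoring genes and the 9.93% of genes with a stage 3 mean of at least 100. The same mean was higher than stage 1 by over 0.7 in 0 members. This was seen in 12.0% of all genes, 0.196% of the lower-scoring genes and 16.4% of genes with a stage 3 mean of at least 100. Replicates 1 and 3 were both below every stage 1 library in 39 members, against 36.6% of all genes tested, and both above every stage 1 library in 27 members, against 27% of all genes. All 3 stage 2 libraries were above every stage 1 library in 27 members, against 24.1% of all genes. The share of members with replicates 1 and 3 both below stage 1 was therefore 26.0%, under that of all genes. It was above the 8.81% of the lower-scoring genes. The share with both above stage 1 was 18.0%, against 39.3% of the lower-scoring genes. The members formed a mixed set in this respect.

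The limma calls shifted in the same way. Stage 2 was called above stage 1 in 16 members, against 18.6% of all genes tested, and below it in 1 member, against 24.3% of all genes. The member called lower was Ro05_G07279, named after its values were seen, with 146, 304 and 132 normalised counts in stage 2 and 327, 270 and 351 in stage 1, a log2 change of -0.79 ± 0.30 (SE). This call was not firm: in 10 of 27 alternative settings 0 members were called lower. These were no filter on low values, a flat prior variance, the libraries of the 2 stages alone, and leaving out stage 1 replicate 2, stage 2 replicate 1 or 3, stage 3 replicate 3, either stage 4 library or stage 5 replicate 2. Without stage 2 replicate 2, stage 2 was called above stage 1 in 7 members, against 15.3% of all genes, and below it in 20 members, against 21.7% of all genes. The rule kept these stages close, so no weight rests on the low counts. With all libraries scaled to equal total reads, 2 members were called higher, against 12% of all genes, and 10 lower, against 34.3%. The balance of the members' calls thus turned without that library and also under this scaling.

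The excess of this library was largest among the members with the highest scores, a ranking that used the same values. In the 50 highest scores, replicate 2 exceeded the other stage 2 libraries by a median of 1.25 on the log2 scale, and it did so by 0.69 in the next 50 and by 0.53 in the lowest 50. Stage 2 without replicate 2 differed from stage 1 by medians of -0.40, -0.02 and 0.12 in the same order. It was lower by over 0.7 in 16, 3 and 2 members. The late level showed no such gradient, with median late means of 1946, 2109 and 2157 normalised counts.

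Applying the same rule without stage 2 replicate 2 took 84 of the 150 members again. Of the other 66, 21 failed because stage 2 then lay over 0.7 below stage 1. The other 45 still met every condition but scored below the 150 highest, where the lowest score taken was 1.63. In all, 129 of the 150 members met every condition without this library. Leaving out any other single library took 119 to 137 members again.

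**Figure D5:**
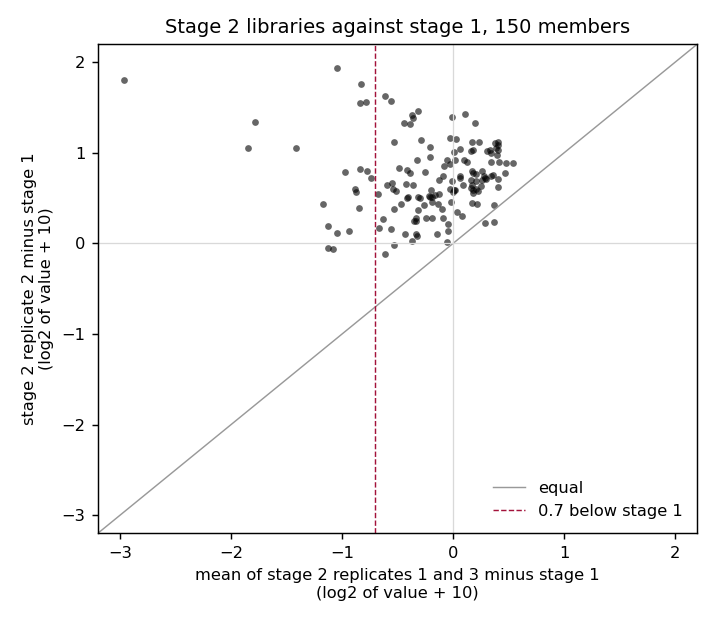
Each point is a member, with the mean of stage 2 replicates 1 and 3 minus stage 1 on the horizontal axis and stage 2 replicate 2 minus stage 1 on the vertical axis, both as log2(value + 10). Most points lie above the line of equality, and the 21 points left of the dashed line have a stage 2 over 0.7 below stage 1 when replicate 2 is left out.

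Within the late band, stage 4 tended to be the highest. The stage 4 mean was above that of stage 3 in 136 of 150 members, and above those of both stage 3 and stage 5 in 93 (62.0%), a course seen in 48.5% of the lower-scoring genes and 25.2% of genes with a stage 3 mean of at least 100. Means climbed from stage 3 through stage 5 in 43 members, declined throughout in 6 and dipped at stage 4 in 8. These were 28.7%, 4.00% and 5.33% of members, against 24.5%, 25.5% and 24.3% of all genes tested. The same courses were seen in 41.5%, 2.74% and 7.24% of the lower-scoring genes. The climbing share was thus near that of all genes and under that of the lower-scoring genes. Both stage 4 libraries lay above every stage 3 library in 84 members (56.0%), against 17.2% of all genes tested. In the lower-scoring genes this share was 52.1%, close to that of the members. Both stage 4 libraries lay above every stage 5 library in 52 members (34.7%), against 24.3% of all genes and 23.3% of the lower-scoring genes. Both lay below every stage 5 library in 9 members (6.0%), against 22.1% and 18.2%. The order of the means within the band was not part of the rule, but its size was, and a gene with a high stage 3 had less room below.

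These late differences were small. On the log2(mean + 10) scale the median difference was 0.34 for stage 4 over stage 3 and -0.14 for stage 5 over stage 4, and the whole late range had a median of 0.44. Limma called 0 members between stages 4 and 3, against 0.0156% of all genes tested. At an unadjusted p under 0.05 there were 28 such members (18.7%), against 13.7% of all genes. On the recovered reads edgeR and DESeq2 called 0 members each, against 0.0104% and 1.64% of all genes. Only 2 libraries represent stage 4, and a p that misses the threshold does not show equal levels.

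Stage 5 was called below stage 4 in 3 members, against 10.8% of all genes tested, and above it in 0. The 3 were named after their values were seen. Ro06_G14401 had 1096, 1120 and 918 normalised counts in stage 5, against 1648 and 1609 in stage 4, a log2 change of -0.65 ± 0.16 (SE). Ro03_G05818 had 4659, 3185 and 3140 in stage 5, against 6185 and 5676 in stage 4, a change of -0.72 ± 0.19. Ro01_G17076 had 6209, 5905 and 8422 in stage 5, against 9432 and 10910 in stage 4, a change of -0.59 ± 0.18. In each of the 3, every stage 5 library was below both stage 4 libraries.

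This count also moved with single libraries. Without stage 2 replicate 2, which is in neither stage but enters the shared estimate of spread, stage 5 was called below stage 4 in 14 members, against 11.4% of all genes. By limma it was 0 without stage 4 replicate 1, against 6.05% of all genes, and 0 without stage 4 replicate 2, against 5.31%. At an unadjusted p under 0.05, in either direction, there were then 11 and 2 members (7.33% and 1.33%), against 24.2% and 23.8% of all genes. The count was 1 without stage 5 replicate 2 and 5 without stage 5 replicate 3, against 10.5% and 9.84% of all genes. With all libraries the count was 2 by edgeR and 4 by DESeq2, all lower, against 9.42% and 11.1% of all genes.

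Members varied more among replicates of stage 2 than of other stages. The median SD of log2(value + 10) over the members was 0.46 in stage 2, against 0.22, 0.22, 0.12 and 0.24 in stages 1, 3, 4 and 5. For the lower-scoring genes it was 0.20 in stage 2, against 0.17, 0.16, 0.09 and 0.18. For genes with a stage 3 mean of at least 100 it was 0.15 in stage 2, against 0.18, 0.18, 0.11 and 0.20. The stage 2 value of the members was thus the one that stood well away from the other sets.

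Step size and steadiness both depended on how libraries were scaled. With equal total reads the fold of late over early means had a median of 2.21 and a range of 1.50 to 10.6, and 96 of the 150 members kept a fold of at least 2. Late means stayed within 0.7 in 126 members. The stage 5 mean was below the stage 4 mean in 130 members, against 99 as deposited, and the stage 4 mean was above the stage 3 mean in 112, against 136 as deposited. Limma with equal total reads called stage 3 above stage 2 in 149 members, against 9.56% of all genes. It called stage 5 below stage 4 in 20 members (13.3%), close to the 14.8% of all genes. The median log2 change over the members for stage 3 over stage 2 was then 1.23, and that of all genes was -0.71. This scaling multiplies each library by 1 factor and so moves all genes nearly alike. The distance between members and all genes is thus nearly fixed and says nothing about the scaling. Under this scaling 146 genes met every condition of the rule, 77 of them members.

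By identifier prefix, Ro01 to Ro07 held 13, 29, 19, 28, 23, 26 and 12 members. These were 8.67%, 19.3%, 12.7%, 18.7%, 15.3%, 17.3% and 8.00% of the members, where the same prefixes held 12.0%, 15.6%, 14.6%, 13.3%, 14.1%, 18.7% and 11.8% of the genes with a stage 3 mean of at least 100. All 7 prefixes were thus represented in broadly similar shares, and no test was made of the differences. What the prefixes stand for is not given in the table.

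In identifier order, 4 pairs of members stood within 2 steps of each other. They were Ro02_G01589 with Ro02_G01591, Ro05_G01764 with Ro05_G01766, Ro05_G07279 with Ro05_G07280, and Ro06_G05690 with Ro06_G05691. The paired genes differed in level: Ro02_G01591 averaged 7334 normalised counts over stages 3 to 5, against 746 in Ro02_G01589, and Ro06_G05691 averaged 5279, against 1181 in Ro06_G05690. Ro05_G07279 and Ro05_G07280 were alike at 1615 and 1704. These values are not adjusted for transcript length, and whether reads were shared between similar copies cannot be read from the table.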

How the data were processed

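Poly(A) RNA of fruit was sequenced in 14 libraries. Trimmomatic, HISAT2 and DESeq2 were used, per the submitters' processing notes. Which counter, build and gene models served is not given in the sources used here. Values in the deposited table are a normalised signal, read counts that the authors divided by 1 size factor per library. In every library 100% of values were whole multiples of 1 read within 0.01, so reads were recovered. Genes with at least 2 libraries at 10 normalised counts were kept (19234, all members among them).

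Tests used limma 3.58.1 (R 4.3.3) on log2(normalised count + 1), fitting stage as the only term over all 14 libraries, with a prior variance that followed mean level. Calls used two-sided Benjamini-Hochberg adjusted p-values below 0.05 over all genes tested. On recovered reads, edgeR 4.0.16 called 10246 genes for stage 3 over stage 2 and DESeq2 1.42.0 called 10356. The fit was tested on simulated data.

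Members and lists were chosen with earlier results of these data known. Named members had the 3 highest scores, the 3 highest late means, the 2 smallest late ranges, the 2 largest excesses of stage 2 replicate 2, or the lowest score, with 1 gene just outside; others are said to be named after their values were seen. Gene name lists could not be matched to identifiers and were not used. Deviations of same-numbered libraries correlated at 0.235 to 0.390 in all 3 pairs of stages 1 and 2. Between other stages such correlations ran from -0.088 to 0.19. The labels state no pairing, and replicate 2 was the shallowest library of both stage 1 and stage 2. What the correlations reflect was not tested. Alternatives were other pseudocounts, filters, scalings, blocks, tools and libraries left out. Counting error only is covered by read totals.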

Additional observations from a re-analysis of the deposited data

How the results depend on the processing

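The 150 members called for stage 3 over stage 2 stayed between 148 and 150 under all alternatives, against 38.4% to 64.6% of all genes. Those for stage 5 over stage 1 stayed between 127 and 150, against 65% to 84.8% of all genes. Both counts follow from how the members were chosen. For stage 2 over stage 1 the 17 called members (11.3%, against 42.8% of all genes) became 32 with quantile normalization (21.3%, against 48.4%) and 26 with edgeR (17.3%, against 46.6%). With equal total reads they were 12, of which 2 higher and 10 lower, against 16 higher and 1 lower as deposited. Leaving out 1 library at a time gave 12 to 27, against 36.5% to 44.1% of all genes. With the replicate block, a term for the replicate number, they were 25 (23 higher, 2 lower). These were 16.7% of members, against 44.9% of all genes. The replicate block gave 150, 0, 4 and 150 members for stage 3 over 2, 4 over 3, 5 over 4 and 5 over 1. The shares of all genes were 54.4%, 0%, 20.7% and 79.1%, and the 4 members were 2.67%. None of these member counts changed by over 1.5 times with the block. For stage 4 over stage 3, leaving out 1 library outside stage 4 gave 0 to 2, against 0% to 1.92% of all genes. The count of 2 (1.33%) came without stage 3 replicate 2. For stage 5 over stage 4 the 3 members (2%, against 18.4%) became 20 with equal total reads (13.3%, against 18.8%). Leaving out 1 library outside stage 4 gave 1 to 14 there, against 14.9% to 19.5% of all genes. Where stage 4 kept a single library, its variation was taken to equal that of the rest. The rule took 75 members again with a tolerance of 0.5, 69 with 1.0, 85 with stage medians, 77 with equal total reads, 73 with quantile normalization and 84 to 137 without single libraries. Genes seen on the chosen side of a left-out library had a median of 99.7% over libraries, and 98.3% with a margin of 1. The lowest share with a margin of 1 was 90.7%, in stage 2 replicate 2. Of 296 alternative values for named genes at stage 3 over stage 2, 294 stayed called in the same direction and 2 missed the threshold. DESeq2 gave no adjusted p for Ro04_G23123. The causes of these moves were not tested.

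The limits are few libraries per stage, with 2 in stage 4, a choice of members that used every stage mean, and identifiers without names or lengths.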
